A study of Rattus norvegicus with 6 samples.

Results

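The genes described here are 8 members of the inflammatory response, taken from a list of gene names out of 43360 gene IDs in the count tables of a rat liver cancer experiment. They are the cytokines Il6 (ENSRNOG00000010278) and Il1b (ENSRNOG00000004649), the chemokines Ccl2 (ENSRNOG00000007159) and Cxcl1 (ENSRNOG00000002802), the adhesion receptor Icam1 (ENSRNOG00000020679), the prostaglandin-forming enzyme Ptgs2 (ENSRNOG00000002525), the transcription factor subunit Nfkb1 (ENSRNOG00000023258) and the leukocyte surface phosphatase Ptprc (ENSRNOG00000000655). All 8 IDs were present in every library and all 8 passed the filter on low counts. The pairs of symbol and ID are those of the selection list. The RefSeq gene table used here lists all 8 symbols but 0 Ensembl IDs, so the pairs were not checked against it.

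Livers came from male Fischer-344 rats, an inbred strain, and the design text lists 18 rats in 3 groups followed over 16 weeks of injury. Control rats were given only 0.5% (w/v) carboxymethyl cellulose by mouth each day. The HCC group (hepatocellular carcinoma) received diethylnitrosamine (DEN), an alkylating liver carcinogen, at 50 mg/kg by weekly injection, and then 2-acetylaminofluorene (2-AAF), an aromatic amine carcinogen, at 25 mg/kg by mouth. The HCC/NAC group received both carcinogens in the same way together with N-acetylcysteine (NAC), which supplies cysteine to make glutathione, at 300 mg/kg by mouth each day. Whether either carcinogen group was also given carboxymethyl cellulose is not given in the sample information used here. RNA of 5 animals per group was pooled and sequenced as 2 libraries per group after poly(A) selection; the protocol calls the animals mice, whereas the organism label is rat. Whether the 2 libraries of a group held different animals is not given, so p-values rest on the spread between libraries alone, and that spread may be technical. The samples are whole liver tissue, in which fewer cells of a type and less RNA per cell cannot be told apart, and the 8 genes hold no marker of hepatocytes with which to check the tissue label.

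In an inflamed liver, injured hepatocytes and resident macrophages switch on NF-κB, a family of transcription factors whose p50 subunit is made from the Nfkb1 precursor. NF-κB is known to raise transcription of Il6, Il1b, Ccl2, Cxcl1, Icam1 and Ptgs2. The CC chemokine Ccl2 attracts monocytes, the CXC chemokine Cxcl1 attracts neutrophils, and Icam1 on endothelium and hepatocytes holds leukocytes by binding their integrins. Ptprc, known as CD45, is carried by nucleated blood cells and is used as a general leukocyte marker.

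The carcinogen-treated livers had more Ccl2, Icam1 and Ptprc mRNA than control livers, with NAC or without it. Cxcl1 took another course: its level in HCC livers was no higher than in control, and in HCC/NAC livers it was 6.89-fold above control and 9.18-fold above HCC. Nfkb1 rose in HCC livers by 1.55-fold, a call that was lost when control replicate 1 was left out. Il1b and Ptgs2 had no call in any comparison, and Il6 was near the limit of detection throughout.

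Library totals lay between 33917707 and 37717373 counts, and the 8 genes together took from 2044 to 5869 counts of a library. Levels are given as CPM, counts per 1000000 of the library total after TMM scaling, a correction for differences in RNA composition. At this depth 1 count corresponded to between 0.0222 and 0.0308 CPM. Control replicate 1 and both HCC/NAC libraries had few weakly detected IDs (336, 632 and 708 IDs with 1 to 5 counts), whereas control replicate 2 and the HCC libraries had 2847 to 3364. Among the 8 genes, Il6, Ptgs2 and Ccl2 had libraries with fewer than 20 counts, and its part in their values was not tested. The deposited control tables carry another name prefix than the 4 carcinogen tables. What the prefix stands for is not given, and it cannot be told apart from the carcinogen treatment. It is shared by the HCC and HCC/NAC tables.

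The promoters are shown because most of these genes, as listed above, are known NF-κB targets. Ptprc is not on that list. Whether a motif match has a part in any difference between the groups was not tested. RefSeq promoter windows (build GRCr8, 250 bases before to 50 bases after the annotated start, read along the gene's strand) were found for 7 of the 8 genes, with Ccl2 missing from the table. Both strands were searched for the NF-κB consensus and for GGAAATTCC, a shorter motif that was added after the promoters had been read. A stretch can match both, since the shorter motif on one strand can lie inside the consensus on the other. The stretches printed are the 3 from called genes that hold a match, plus that of Il6, which had no call. Capitals mark the matches. The Cxcl1 stretch is chr14:17479322-17479571 (minus strand), that of Il6 is chr4:5894576-5894825 (minus), that of Icam1 is chr8:27829595-27829687 (plus), and that of Nfkb1 is chr2:226805440-226805469 (minus).
Cxcl1: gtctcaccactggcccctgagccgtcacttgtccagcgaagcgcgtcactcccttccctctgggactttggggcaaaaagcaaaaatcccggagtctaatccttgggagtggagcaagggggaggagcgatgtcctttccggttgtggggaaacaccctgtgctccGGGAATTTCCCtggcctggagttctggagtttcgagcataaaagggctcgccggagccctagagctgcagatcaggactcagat
Il6: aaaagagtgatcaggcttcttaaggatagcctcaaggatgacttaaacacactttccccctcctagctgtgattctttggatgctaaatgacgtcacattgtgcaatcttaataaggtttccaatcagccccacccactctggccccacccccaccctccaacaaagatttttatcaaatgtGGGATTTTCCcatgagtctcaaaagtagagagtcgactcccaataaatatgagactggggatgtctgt
Icam1: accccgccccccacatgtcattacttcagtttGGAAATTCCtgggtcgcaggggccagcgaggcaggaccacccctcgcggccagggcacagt
Nfkb1: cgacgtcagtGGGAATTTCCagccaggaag

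The Cxcl1 promoter has 2 overlapping consensus matches, at -84 to -75 on the strand of the gene and at -83 to -74 on the opposite strand, and GGAAATTCC inside them on the opposite strand. Nfkb1 has 1 consensus match just inside the transcript, at bases 4 to 13, with GGAAATTCC inside it on the opposite strand, and its capitals spell the same bases as the first match of Cxcl1. Il6 has 1 consensus match, at -68 to -59. Icam1 has no match to the consensus in this window but has GGAAATTCC at -218 to -210. Its printed stretch ends at -158, because the RefSeq bounds of the gene begin upstream of the annotated start used here. No match to either motif was found in the windows of Il1b, Ptgs2 and Ptprc, which says only that these letters are not there. Of all 33469 rat promoter windows of this length, 4.18% hold the consensus and 0.332% hold GGAAATTCC. Since GGAAATTCC was chosen after these promoters had been read, its share cannot measure an excess among the 7 windows. Nor can that of the consensus, since the promoters are shown because most of the genes are known NF-κB targets. A match is a description of the sequence and not a measured binding site.

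**Figure D1:**
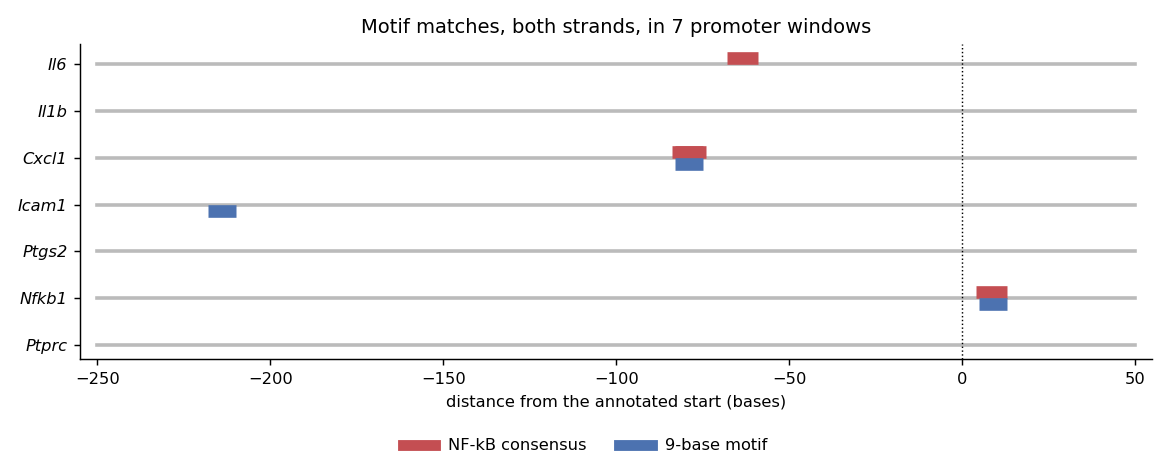
Position of motif matches in the promoter windows of 7 genes, with the distance from the annotated start in bases on the horizontal axis and 1 gene per row. Red bars are NF-κB consensus matches and blue bars are GGAAATTCC matches, either strand; Cxcl1 and Nfkb1 carry both at the same place, Il6 only the first and Icam1 only the second.

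In HCC against control livers, 4 of the 8 genes rose (Ccl2, Icam1, Nfkb1 and Ptprc), beside 17.0% of the 16898 tested IDs. None fell (0 genes by edgeR's quasi-likelihood test at a Benjamini-Hochberg adjusted p under 0.05, 0 by DESeq2, and 1, Cxcl1, at an unadjusted p under 0.05), beside 17.8% of tested IDs. In 6 genes both HCC libraries lay above both control libraries, and in 1 both lay below. Il6 is among the 6. It had 0 counts in both controls and passed the filter only through carcinogen-treated libraries, so it could not lie below control. The corresponding shares of all tested IDs were 38.3% and 34.0%. The median log2 fold change of the 8 genes was 1.20, or 1.17 with Il6 at its lower bound, and that of all tested IDs was 0.05. Both medians of the 8 genes include Il6 under this limit.

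In HCC/NAC against control, 4 genes rose (Ccl2, Cxcl1, Icam1 and Ptprc), beside 21.3% of tested IDs. None fell (0 genes by edgeR and by DESeq2, and 0 at an unadjusted p under 0.05), beside 24.9%. Both HCC/NAC libraries lay above both control libraries in 6 genes and below them in 0, beside 35.1% and 35.0% of tested IDs. The median log2 fold change was 1.59, or 1.34 with Il6 at its bound, beside 0.05 for all IDs. Here too Il6 could not lie below control. Both comparisons use the same control libraries.

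In HCC/NAC against HCC, the comparison of NAC among carcinogen-treated rats, 1 gene of the 8 was higher, Cxcl1, beside 11.2% of tested IDs. None was lower (0 genes by edgeR and by DESeq2, and 0 at an unadjusted p under 0.05), beside 16.5%. In TMM-scaled CPM both HCC/NAC libraries lay above both HCC libraries in 3 genes and below them in 1, beside 29.0% and 36.9% of tested IDs. The other 4 genes overlapped. The median log2 fold change was -0.004, beside -0.05 for all IDs. With library totals in place of TMM scaling, which moves the median of all IDs in this comparison by -0.37, Icam1 and Nfkb1 were also called, as lower, as were 34.4% of all tested IDs.

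**Figure D2:**
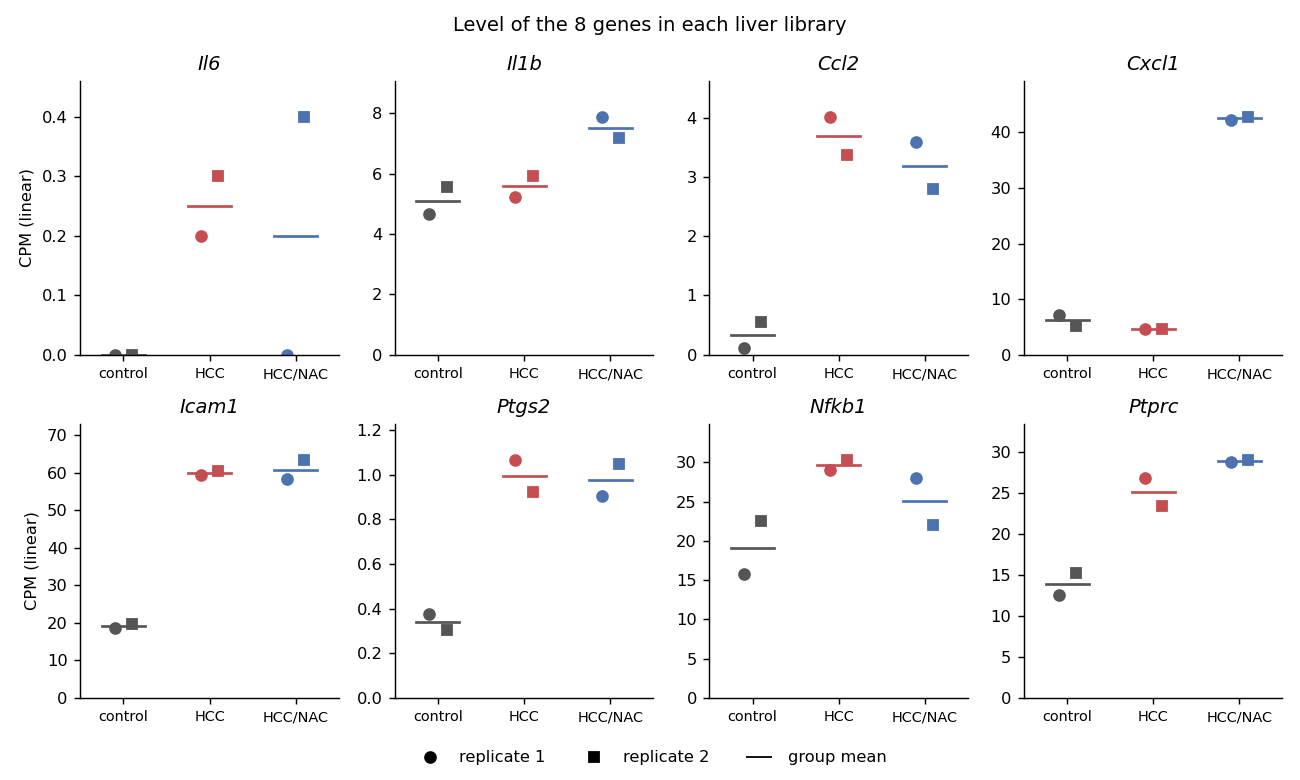
CPM of each gene on a linear axis from 0, with a panel per gene, the 3 groups along the horizontal axis, a circle for replicate 1, a square for replicate 2 and a line at the group mean. Icam1 and Ptprc are raised in both carcinogen groups, and Cxcl1 stands at 42.2 and 42.8 CPM in HCC/NAC livers, with the other 4 libraries between 4.57 and 7.12.

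Among the cytokines, Il6, the inducer of the hepatic acute phase response, had 0 counts in both control libraries. A count of 0 allows up to 3 counts per library, or 0.0869 and 0.0906 CPM. The HCC libraries held 9 and 12 counts (0.200 and 0.300 CPM), and the HCC/NAC libraries held 0 and 13 (0 and 0.400 CPM). Both HCC libraries were thus above control, while the HCC/NAC libraries fell on both sides of them. Mean Il6 in HCC was 2.81-fold the mean control limit. This bound covers only the counting error of the control zeros and takes the HCC counts as exact. The adjusted p of HCC against control was 0.135 (edgeR). The adjusted p was 0.131 for HCC/NAC against control and 0.937 against HCC. Of all IDs with 9 to 20 counts in the partner library, 41.2% and 41.9% were at 0 in HCC/NAC replicates 1 and 2, 38.9% and 15.7% in control replicates 1 and 2, and 5.76% and 8.07% in HCC replicates 1 and 2. The part of these zeros in the Il6 values, and in the bound above, was not tested.

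Il1b encodes the pro-inflammatory cytokine IL-1β, which macrophages release after inflammasome cleavage. It measured 4.66 and 5.56 CPM in control, 5.24 and 5.92 in HCC, and 7.89 and 7.17 in HCC/NAC livers. In these TMM-scaled values the control and HCC libraries overlapped, and both HCC/NAC libraries were above the other 4. HCC differed from control by a fitted log2 change of 0.13 ± 0.25 (SE, adjusted p = 0.737, edgeR), with a 95% interval of -0.42 to 0.67. HCC/NAC differed from control by 0.56 ± 0.25 (SE, adjusted p = 0.0854, edgeR) and from HCC by 0.43 ± 0.25 (SE, adjusted p = 0.228, edgeR). The first of these passed the threshold with upper-quartile scaling (adjusted p = 0.0362) and with a stricter filter (adjusted p = 0.0428), and its adjusted p ranged from 0.0362 to 0.279 over 14 alternatives. With library totals in place of TMM, HCC/NAC differed from HCC by only 0.06 (adjusted p = 0.885, edgeR), so their order depends on the scaling.

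Of the chemokines, Ccl2 was almost silent in control, with 4 and 18 counts (0.116 and 0.544 CPM). It reached 181 and 135 counts in HCC (4.02 and 3.37 CPM) and 119 and 91 in HCC/NAC livers (3.58 and 2.80 CPM). Every carcinogen-treated library was well above both controls, and the ranges of HCC and HCC/NAC overlapped. Ccl2 rose 11.2-fold in HCC, from 0.330 ± 0.30 to 3.69 ± 0.46 CPM (SD, n = 2 each), with a fitted log2 change of 3.48 ± 0.62 (SE, adjusted p = 8.34e-04, edgeR). In HCC/NAC it was 9.68-fold above control (adjusted p = 9.91e-04, edgeR). The size of both rises depended on the controls, which lay 4.69-fold apart. The log2 fold change of HCC against control was 2.76 without control replicate 1 and 5.02 without control replicate 2, and that of HCC/NAC against control was 2.53 and 4.82, all of them called. HCC/NAC against HCC gave -0.21 ± 0.52 (SE, adjusted p = 0.828, edgeR), with a 95% interval of -1.36 to 0.94.

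Cxcl1 measured 7.12 and 5.22 CPM in control livers (246 and 173 counts). In HCC livers it stood at 4.57 and 4.69 CPM (206 and 188 counts), and in HCC/NAC livers at 42.2 and 42.8 CPM (1401 and 1392 counts). The HCC libraries were both a little below the controls, and the HCC/NAC libraries were far above the other 4, with replicates only 1.01-fold apart. Cxcl1 was 9.18-fold higher in HCC/NAC than in HCC, a fitted log2 change of 3.20 ± 0.18 (SE, adjusted p = 1.00e-07, edgeR). It ranked 142nd of the 16898 tested IDs when these are ordered by log2 fold change. Against control it rose 6.89-fold, by 2.78 ± 0.17 on the log2 scale (SE, adjusted p = 8.80e-08, edgeR). Over the 14 alternatives the log2 fold change between HCC/NAC and HCC ranged from 2.82 to 3.26, called in each. In HCC against control the value was -0.42 ± 0.18 (SE, adjusted p = 0.0942, edgeR), with a 95% interval of -0.81 to -0.03. It was called as a fall only without control replicate 2, at -0.55 (adjusted p = 0.0339), and its adjusted p ranged from 0.0339 to 0.881 over the alternatives. The neutrophil markers with which the Cxcl1 level could be compared were not analysed here.

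Icam1, the receptor for leukocyte integrins, was measured with the most counts of the 8. Control livers had 18.6 and 19.8 CPM (644 and 655 counts), HCC livers 59.4 and 60.6 CPM (2678 and 2427 counts), and HCC/NAC livers 58.3 and 63.5 CPM (1936 and 2063 counts). Both carcinogen groups lay far above control, and the HCC libraries fell inside the range of the HCC/NAC libraries. The rise was 3.12-fold in HCC, with a fitted log2 change of 1.64 ± 0.10 (SE, adjusted p = 5.38e-08, edgeR), and 3.17-fold in HCC/NAC, with 1.66 ± 0.10 (SE, adjusted p = 4.87e-08, edgeR). Between HCC/NAC and HCC the log2 fold change was 0.02 ± 0.09 (SE, adjusted p = 0.909, edgeR). Its 95% interval of -0.18 to 0.22 was the narrowest of the 8 genes in this comparison. With library totals in place of TMM this value turned to -0.35 (adjusted p = 0.00828), next to the shift of -0.37 in the median of all IDs. The adjusted p ranged from 0.00828 to 0.998 over the 14 alternatives.

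Ptgs2 encodes cyclooxygenase-2, the inducible enzyme that starts prostaglandin synthesis. It had 13 and 10 counts in control (0.376 and 0.302 CPM), 48 and 37 in HCC (1.07 and 0.923 CPM), and 30 and 34 in HCC/NAC livers (0.903 and 1.05 CPM). All 4 carcinogen-treated libraries were above both controls. The mean CPM was 2.93-fold that of control in HCC and 2.87-fold in HCC/NAC, with adjusted p = 0.235 and 0.212 (edgeR). At these counts the 95% interval of the log2 fold change in HCC reached from -0.51 to 3.59, and a difference of the observed size could not be called. Between HCC/NAC and HCC the log2 fold change was -0.03 ± 0.90 (SE, adjusted p = 0.99, edgeR).

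Nfkb1 makes the p105 precursor of the NF-κB subunit p50. Its level was 15.7 and 22.6 CPM in control, 29.0 and 30.3 in HCC, and 28.0 and 22.1 in HCC/NAC livers. Both HCC libraries were above the other 4, and HCC/NAC replicate 2 lay inside the control range. Nfkb1 rose 1.55-fold in HCC, by 0.63 ± 0.18 on the log2 scale (SE, adjusted p = 0.0144, edgeR). Without control replicate 1 the value was 0.39 and the call was lost (adjusted p = 0.133). The adjusted p ranged from 7.32e-05 to 0.133 over the alternatives. In HCC/NAC against control the log2 fold change was 0.39 ± 0.18 (SE, adjusted p = 0.0933, edgeR), which was called in 5 of 14 alternatives, among them without control replicate 2 (0.75) and without HCC/NAC replicate 2 (0.53), with adjusted p between 0.00717 and 0.609. HCC/NAC was not called against HCC, with -0.24 ± 0.17 (SE, adjusted p = 0.350, edgeR) and a 95% interval of -0.62 to 0.14. With library totals this comparison gave -0.62 (adjusted p = 0.0135), beside adjusted p up to 0.730 in the other alternatives. NF-κB activity is set largely by release of the protein from its inhibitors, which mRNA counts do not measure.

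Ptprc measured 12.5 and 15.2 CPM in control livers (433 and 502 counts), 26.8 and 23.3 in HCC (1205 and 934 counts) and 28.7 and 29.0 in HCC/NAC livers (952 and 942 counts). All carcinogen-treated libraries were above both controls. In TMM-scaled CPM both HCC/NAC libraries were above both HCC libraries, an order that depends on the scaling. Ptprc rose 1.81-fold in HCC, by 0.85 ± 0.14 on the log2 scale (SE, adjusted p = 5.30e-04, edgeR), and 2.08-fold in HCC/NAC, by 1.06 ± 0.14 (SE, adjusted p = 7.93e-05, edgeR). Between HCC/NAC and HCC the difference of 0.20 ± 0.14 was not called (SE, adjusted p = 0.330, edgeR), with a 95% interval of -0.10 to 0.51. With library totals in place of TMM its sign turned, to -0.17 (adjusted p = 0.390, edgeR). The IDs most like Ptprc over the 6 libraries, among 13284 with a mean of at least 1 CPM, were ENSRNOG00000047606 and ENSRNOG00000012927, each with r = 0.997 on the log2 CPM scale. The libraries fall into groups, and these coefficients describe them only. ENSRNOG00000047606 had 3.97 and 5.35 CPM in control, 17.3 and 14.5 in HCC and 19.6 and 19.1 in HCC/NAC livers.

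**Figure D3:**
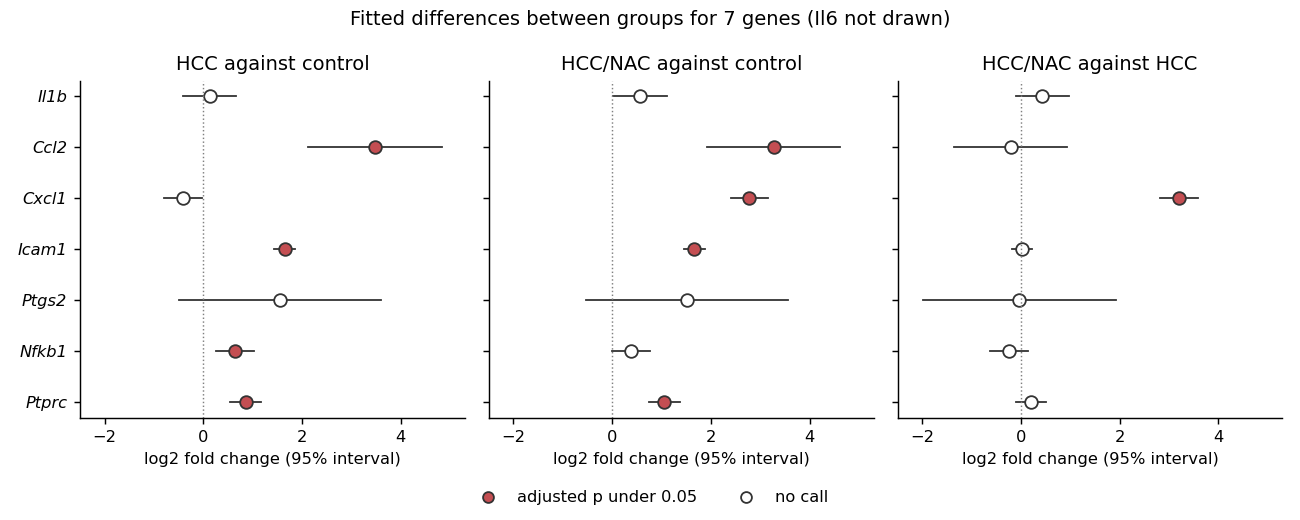
Fitted log2 fold change of 7 genes in the 3 comparisons, with bars for the 95% interval of the quasi-likelihood fit and filled points for an adjusted p under 0.05. Il6 is not drawn because its fitted value depends on the prior count. Cxcl1 is the filled point of the right panel, at 3.20, and lies left of 0 in the left panel, at -0.42.

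Since Ptprc itself changed, the counts of the other genes were also set against those of Ptprc in the same library, a description chosen after the values had been seen. Such a ratio needs no scaling between libraries. It compares a gene with itself across libraries and not gene with gene, because counts are not per length. Cxcl1 had 56.8 and 34.5 counts per 100 Ptprc counts in control, 17.1 and 20.1 in HCC and 147.2 and 147.8 in HCC/NAC livers. It was thus lowest in both HCC libraries and highest in both HCC/NAC libraries on this scale too. Ccl2 had 0.924 and 3.59 per 100 in control, 15.0 and 14.5 in HCC, and 12.5 and 9.66 in HCC/NAC livers, so the ratio was above both controls in all 4 carcinogen-treated libraries. Icam1 had 148.7 and 130.5 per 100 in control, 222.2 and 259.9 in HCC, and 203.4 and 219.0 in HCC/NAC livers, again above control in all 4 libraries.

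The order was the reverse for Il1b, with 37.2 and 36.7 counts per 100 Ptprc counts in control, 19.6 and 25.4 in HCC, and 27.5 and 24.7 in HCC/NAC livers. Every carcinogen-treated library was below both controls for Il1b. Il1b itself had no call against control, whereas Ptprc rose, and a gene that rises less than Ptprc falls on this ratio. Nfkb1 had 125.4 and 148.8 per 100 in control, 108.4 and 130.1 in HCC, and 97.6 and 76.2 in HCC/NAC livers. Its HCC range overlapped that of control, and the HCC/NAC libraries were below the other 4. Ptgs2 had 3.0 and 1.99 per 100 in control, 3.98 and 3.96 in HCC, and 3.15 and 3.61 in HCC/NAC livers. These ratios have no test here, and the shares of all tested IDs with the same orders were not computed on this scale. Which cells carried the mRNAs was not measured.

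**Figure D4:**
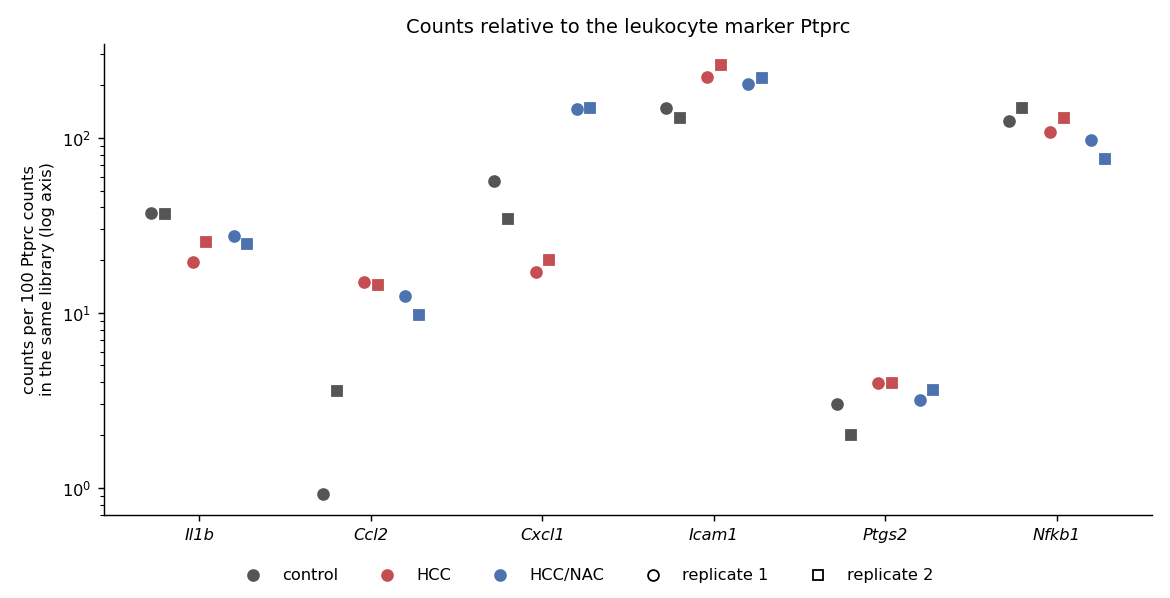
Counts of 6 genes per 100 counts of Ptprc in the same library, on a logarithmic axis, with colour for the group and marker shape for the replicate. Cxcl1 stands at 147.2 and 147.8 in HCC/NAC livers against 17.1 and 20.1 in HCC, and Il1b is below both controls in all 4 carcinogen-treated libraries. Ptprc itself rose in both carcinogen groups, which lowers this ratio for a gene that rises less.

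**Figure D5:**
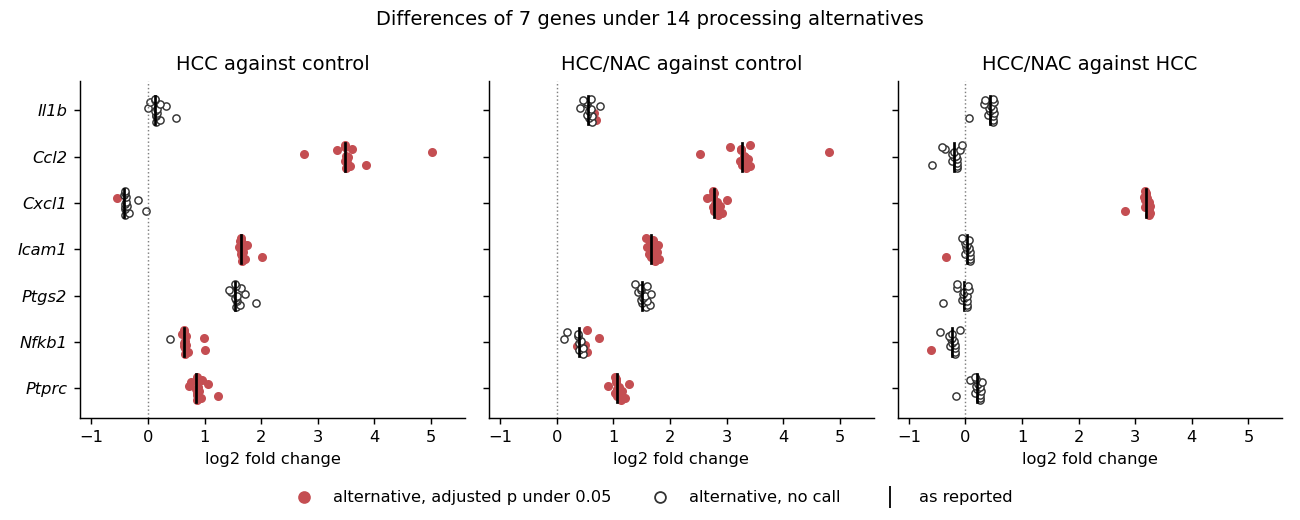
Log2 fold change of 7 genes in the 3 comparisons as reported (black bar) and under each processing alternative (points, filled where the adjusted p was under 0.05), 14 per gene and 13 for Ptgs2. The Cxcl1 points of HCC/NAC against HCC lie between 2.82 and 3.26, whereas those of Ccl2 against control spread with the control libraries.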

How the data were processed

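Counts were deposited by the authors as raw whole numbers per Ensembl gene ID, 43360 in each of 6 tables. Per the file headers each table counts a STAR alignment. The tools named, per the submitters' processing notes, are FastQC, STAR, featureCounts and edgeR. Versions, genome build, annotation, strand setting and duplicate handling were not given in the sources used here. A count is not a molecule, and limits from counts cover counting error only.

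The analysis used edgeR 4.0.16 under R 4.3.3. The filter was filterByExpr (16898 IDs kept, at least 99.95% of counts per library), with TMM scaling. Its factors were 1.19 and 1.18 for the HCC libraries and 0.91 to 0.92 for the control and HCC/NAC libraries. A quasi-likelihood model with a mean per group was fitted to all 6 libraries, with Benjamini-Hochberg adjustment over all tested IDs and a threshold of 0.05. Standard errors came from the F statistic. The fit was also run on simulated counts. Changes were placed only in IDs with a mean of at least 1 CPM, so that run does not cover Il6 or Ptgs2. It drew its spread from the same libraries and cannot show whether that spread is technical. The members and lists were chosen with earlier results of these data known, and all 8 members are named. Lists of related genes and cell type markers, written by symbol, were not used because 0 IDs could be paired with symbols. Alternatives were RLE, upper-quartile and no scaling, DESeq2 1.42.0, no filter, a stricter one (1 CPM or more in 4 libraries or more), a replicate block, only the compared groups, and each library left out.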

Additional observations from a re-analysis of the deposited data

How the results depend on the processing

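Of 328 alternative values of the 8 genes, 305 kept their direction and their side of the threshold, 1 lost its call and 10 gained one, 1 of these with a change of sign. In all, 12 values changed sign and 1 was at 0. In HCC/NAC against HCC, library totals in place of TMM called 3 of the 8 genes and 39.0% of all IDs, and gave log2 fold changes of -0.35 for Icam1 and -0.17 for Ptprc. The share of higher among all calls was 40.5% with TMM and 11.9% with library totals there, and 48.9% and 77.8% in HCC against control. The sign of Ptgs2, Icam1 and Il6 also changed in this comparison. Ptgs2 gave 0.024 with RLE, 0.032 with upper-quartile scaling, 0.024 with DESeq2, 0.018 with the compared groups only, and -0.16 to 0.055 with a library left out. Icam1 gave -0.011 without a filter and -0.062 to 0.059 with a library left out. Il6, at -0.32 with all libraries, gave values from -6.24 to 0.65 (without HCC/NAC replicate 1) with a library left out, and against control from 0, where leaving out HCC/NAC replicate 2 left 0 counts in both groups, to 6.88. The cause of these changes was not tested, apart from the Il6 value of 0.

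Calls over all IDs in HCC/NAC against HCC ranged from 3093 to 5075 with a library left out, beside 4686 with all. With a library left out 3 to 5 of the 8 genes were called in HCC against control, beside 23.3% to 38.0% of all IDs, 4 to 5 in HCC/NAC against control, beside 36.8% to 42.3%, and 1 in HCC/NAC against HCC, beside 17.0% to 27.8%. Where a group was left with 1 library, that library was assumed to vary like the other groups. The replicate numbers are shared by the groups but nothing ties them to an animal or day, and deviations of same-numbered libraries correlated across IDs by -0.008, 0.007 and 0.001. With the replicate block, 4, 4 and 1 of the 8 genes were called in the 3 comparisons, beside 5982, 7650 and 4861 of all IDs (5883, 7807 and 4686 without it). The stricter filter left Il6 and Ptgs2 untested. The fits of the compared groups only tested Il6 between HCC/NAC and HCC but not against control.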
